A study of Homo sapiens with 12 samples.

Results

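The genes described here are 51 genes of DNA repair, damage signalling and SLFN11, taken by symbol from the 56609 gene symbols measured by RNA sequencing in 2 human Ewing sarcoma cell lines and in a derivative of each that resists the compound YK-4-279. All 51 were found, 50 under the listed symbol and MRE11A under its newer symbol MRE11, and all 51 passed the filter on low values. They fall into homologous recombination (17 genes), end joining (6), the Fanconi anaemia pathway (7), mismatch repair (2), base excision and single-strand break repair (5), nucleotide excision repair (7), checkpoint signalling (5), direct reversal (MGMT) and SLFN11.

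Cells repair a double-strand break by homologous recombination, which copies a sister chromatid and works in S and G2 phase, or by end joining, which religates the ends at any time. Base excision and nucleotide excision repair remove damaged bases, mismatch repair removes replication errors, and the Fanconi anaemia proteins unhook crosslinks between strands. SLFN11 blocks stalled replication forks in cells under replication stress, and its level is widely studied as a marker of response to DNA-damaging drugs and PARP inhibitors, in Ewing sarcoma among other tumours.

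Ewing sarcoma arises in bone or soft tissue and carries the EWS-FLI1 fusion, whose protein binds RNA helicase A, and YK-4-279 was designed against that binding. The 4 groups, with 3 libraries each, were A4573 parental and TC-71 parental, both given DMSO, and A4573-R and TC-71-R, both given YK-4-279. The labels write the dose for A4573-R as 650 uM and that for TC-71-R as 400 uM, and this unit is in doubt. Resistance and exposure to the compound cannot be told apart in any comparison of a derivative with its parent. The labels do not say whether a derivative is 1 clone, or whether the 3 libraries of a group came from separate cultures, so p-values reflect only how far libraries vary, which can be technical.

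Values are counts per 1000000 reads (CPM), and libraries held 44.0 to 62.1 M reads (M, 1000000) on named genes, so that the least read member, ERCC5, still had 144 reads in its lowest library. Ewing sarcoma markers were expressed in every library, with NKX2-2 at 17.8 to 36.4 CPM and NR0B1 at 57.7 to 202 CPM, but CD99, a defining surface marker whose gene lies in the region shared by the X and Y chromosomes, was at 0 to 0.0145 CPM throughout. The blood cell markers PTPRC and CD3E reached at most 1.11 and 0.0133 CPM. The epithelial marker KRT8 and the endothelial marker CDH5 reached at most 2.48 and 0.775 CPM. Fibroblast markers were not all low. The mean of COL1A2 was 238 CPM in A4573-R against 292 in its parent. In TC-71-R it was 0.534 CPM, against 0.039 in its parent. LUM, DCN and COL1A1 reached up to 60.9, 32.4 and 36.6 CPM. The source of this fibroblast marker RNA was not tested. In bulk RNA a lower value can come from fewer cells that express a gene or from less RNA per cell, and these cannot be told apart. Libraries are named below by group and number, so that A4573-R 2 is the library labelled as sample 2 of A4573-R.

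Promoters of 3 members are shown as examples. These genes rose in TC-71-R, 2 of them by more than 2-fold, and moved differently in A4573-R, as did other members such as RAD51AP1. The stretches come from the RefSeq promoter table on GRCh38.p14, in the direction of the gene, up to 250 bases before its start. Each ends before the first base of any GENCODE 29 exon. Capitals mark the letters CCAAT read on either strand. The SLFN11 stretch is chr17:35373702-35373871 (minus strand), the BRIP1 stretch chr17:61863529-61863778 (minus strand) and the UNG stretch chr12:109097347-109097573 (plus strand).
SLFN11: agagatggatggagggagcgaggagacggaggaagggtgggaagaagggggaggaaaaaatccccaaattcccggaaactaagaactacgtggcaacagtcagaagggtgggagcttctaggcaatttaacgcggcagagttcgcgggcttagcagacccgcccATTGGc
BRIP1: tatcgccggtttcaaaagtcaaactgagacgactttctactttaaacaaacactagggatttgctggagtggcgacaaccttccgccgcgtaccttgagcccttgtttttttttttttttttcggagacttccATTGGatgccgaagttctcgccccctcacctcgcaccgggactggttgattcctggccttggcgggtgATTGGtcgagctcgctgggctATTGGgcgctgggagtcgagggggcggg
UNG: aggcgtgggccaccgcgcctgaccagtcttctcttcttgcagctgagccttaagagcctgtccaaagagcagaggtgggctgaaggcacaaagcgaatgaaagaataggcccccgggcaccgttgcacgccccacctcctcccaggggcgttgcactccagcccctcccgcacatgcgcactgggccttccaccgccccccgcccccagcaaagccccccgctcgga

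The match in SLFN11 begins 86 bases before the RefSeq start, those in BRIP1 begin 117, 49 and 28 bases before it, and UNG has none. The table held 46 of the 51 members, and CCAAT occurred in the 250 bases before the start of 18 of them (39.1%), against 33.0% of all 27305 promoters and 35.1% of the 10469 promoters of tested genes. It occurred in 15 of the 31 members in the table that rose in TC-71-R (48.4%) and in 1 of the 10 that fell there (10%). In A4573-R it occurred in 4 of the 14 that rose (28.6%) and in 10 of the 23 that fell (43.5%). Shares by direction were not taken over all tested genes, so these splits have no background to set them against. On either strand, the letters GGCGGGAA, the core of an E2F motif, occurred in 7 of the 46 members (15.2%), in 2.77% of all promoters and in 4.38% of those of tested genes. Any of TTTGGCGC, TTTCCCGC, TTTGCCGC and TTTCGCGC, also of the E2F kind, occurred in 4 members (8.70%), 2.79% of all and 4.34% of those of tested genes. The ETS letters CCGGAAGT occurred in 7 members (15.2%), 3.64% of all and 6.98% of those of tested genes. The NRF1 motif occurred in 0 members, 1.13% of all and 1.90% of those of tested genes. GGCGGGAA and CCGGAAGT each occurred in 12.9% of the members that rose in TC-71-R and in 20% of those that fell there. For the other E2F letters these shares were 6.45% and 10%. These motifs can overlap each other, and a match is a run of letters, not a measured binding site.

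The first question was how each resistant line differed from its parent, tested with limma on log2(CPM + 1) over 14335 genes, where a call means an adjusted p under 0.05. In A4573-R, 14 members rose, 26 fell and 11 did not pass. In TC-71-R the balance was the other way, with 33 members higher, 11 lower and 7 that did not pass. Calls were frequent among all tested genes, of which 72.5% were called in A4573-R (38.3% higher, 34.1% lower) and 78.5% in TC-71-R (38.8% higher, 39.6% lower). These shares are the background for the pathway and list counts given below for each resistant line. The median log2 fold change of the members was -0.10 in A4573-R, where the median of all tested genes was 0.02, and 0.24 in TC-71-R, where that of all tested genes was 0.00. The A4573-R balance is that of the listed members. Among other genes of these pathways there, more rose than fell in homologous recombination, end joining and direct reversal. More fell in the Fanconi anaemia, base excision and nucleotide excision lists, and equal numbers rose and fell in the mismatch repair and checkpoint lists.

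Most changes were small. No member changed by 2-fold or more in A4573-R, as 3.49% of all tested genes did upward and 2.23% downward, and the members ran from -0.71 (UNG) to 0.62 (FANCE) on the log2 scale. In TC-71-R, RAD51AP1, UNG and BRIP1 rose by 2-fold or more, which 4.52% of all tested genes did, and LIG4 fell by 2-fold or more, as 5.82% did. The 3 libraries of a resistant line and the 3 of its parent did not overlap for 38 members in A4573-R (as for 74.6% of all tested genes) and for 46 in TC-71-R (as for 81.1%). The difference between the changes in the 2 lines, tested as an interaction, was called for 40 members (as for 78.1% of all tested genes), 32 with the higher change in TC-71-R (as for 37.9% of all tested genes) and 8 with the lower (as for 40.2%). This difference was 2-fold or more for UNG, RAD51AP1, BRIP1, XRCC2 and FANCD2, each higher in TC-71-R (6.72% of all tested genes), and for no member in the other direction (9.79%).

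**Figure D1:**
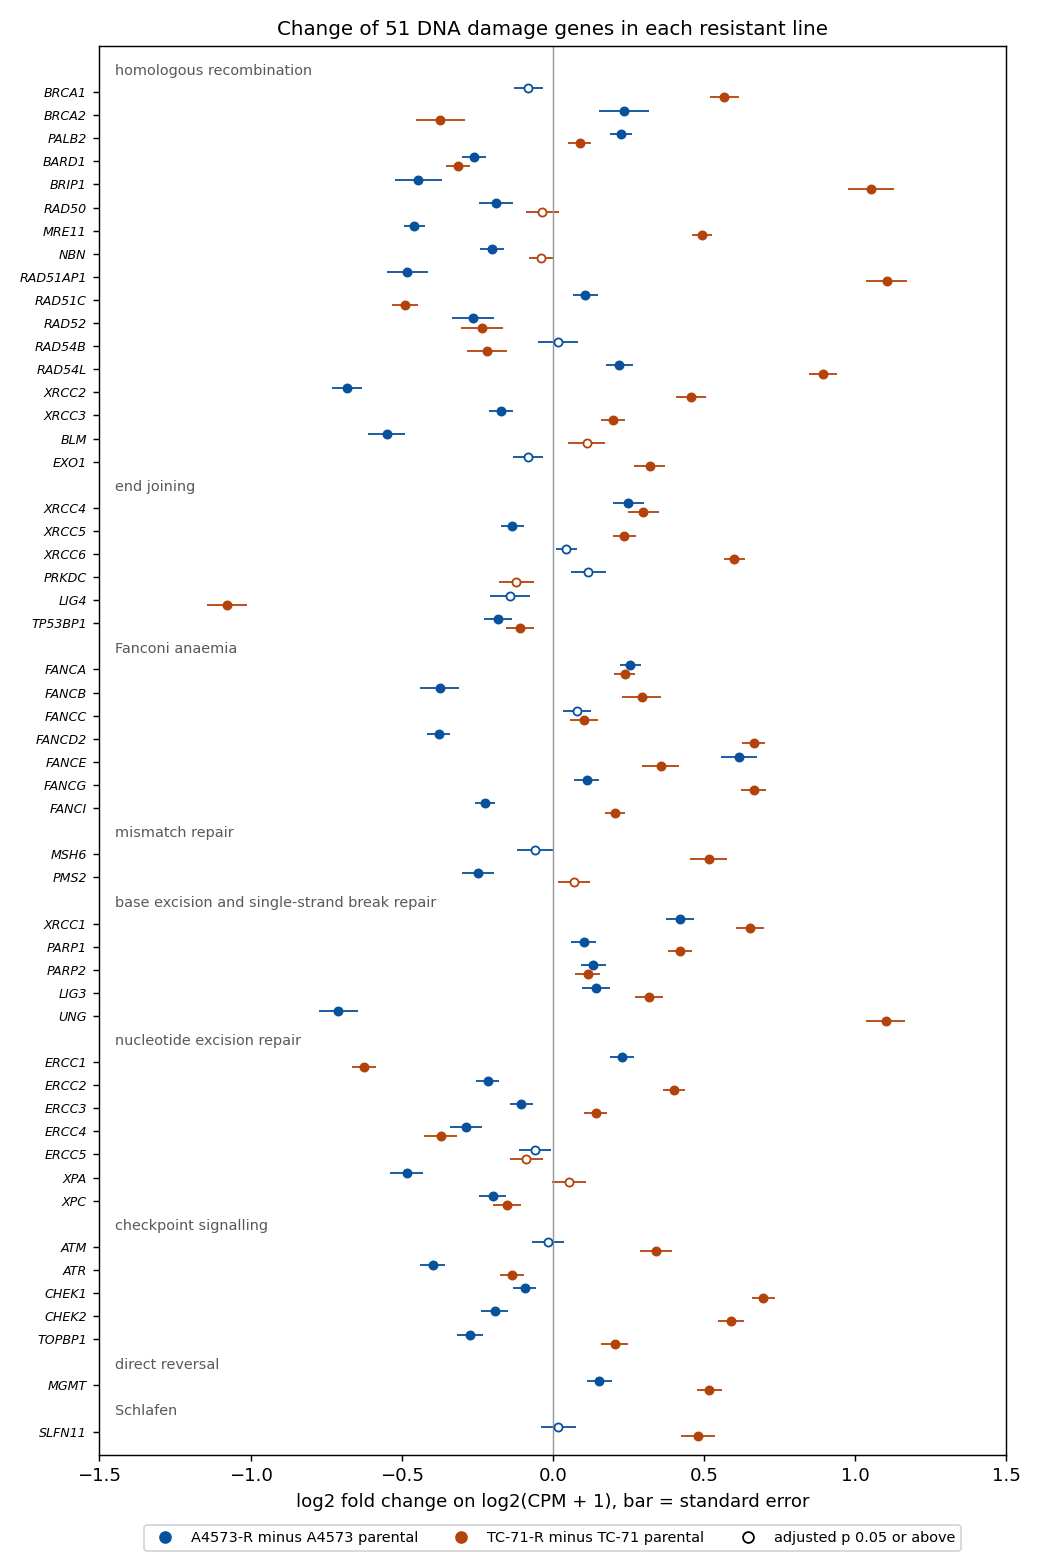
Log2 fold change on log2(CPM + 1) of each of the 51 genes, grouped by pathway, in A4573-R (blue) and TC-71-R (brown) against the parental line. Bars are limma standard errors and open points have an adjusted p of 0.05 or above. Most TC-71-R points lie right of 0 (33 called higher) and most A4573-R points left of it (26 called lower).

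By direction, 15 members fell in A4573-R and rose in TC-71-R, as 11.9% of all tested genes did. These were BRIP1, MRE11, RAD51AP1, XRCC2, XRCC3, XRCC5, FANCB, FANCD2, FANCI, UNG, ERCC2, ERCC3, CHEK1, CHEK2 and TOPBP1. The reverse held for 3 members, BRCA2, RAD51C and ERCC1 (14.3% of all tested genes). In both lines 11 members rose, namely PALB2, RAD54L, XRCC4, FANCA, FANCE, FANCG, XRCC1, PARP1, PARP2, LIG3 and MGMT (16.4%). The 6 that fell in both were BARD1, RAD52, TP53BP1, ERCC4, XPC and ATR (14.8%). The other 16 members did not pass in at least 1 line.

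**Figure D2:**
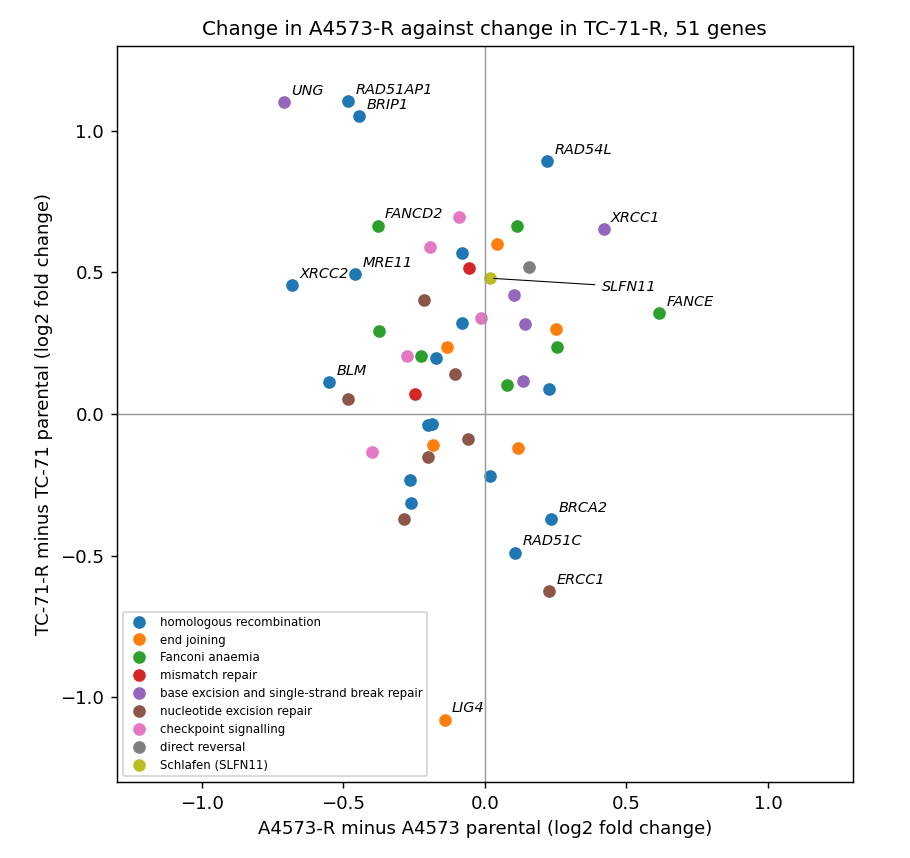
Log2 fold change in A4573-R (x axis) against that in TC-71-R (y axis), 1 point per gene, coloured by pathway. UNG, RAD51AP1 and BRIP1 stand at the upper left, lower in A4573-R and more than 2-fold higher in TC-71-R, and LIG4 at the bottom with a log2 change of -1.08 in TC-71-R.

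SLFN11 (ENSG00000172716, chr17:35350305-35373701, minus strand, GRCh38) was among the more abundant members. In A4573 parental its level was 205, 204 and 206 CPM, and in A4573-R 222, 183 and 219 CPM. In TC-71 parental it was 141 CPM in each of the 3 libraries, and in TC-71-R 203, 187 and 200 CPM. The TC-71-R libraries all lay above their parent, while the A4573-R libraries lay on both sides of theirs.

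The log2 change of SLFN11 was 0.48 (SE 0.06, adjusted p = 1.3e-06) in TC-71-R and 0.02 (SE 0.06, adjusted p = 0.78) in A4573-R, and the difference of 0.46 passed the test (adjusted p = 8.2e-05). A4573-R 2 decided the A4573-R result: without it the change was 0.11 with an adjusted p of 0.014. Between the parental lines SLFN11 was lower in TC-71, with a log2 difference of -0.53 (SE 0.06, adjusted p = 2.2e-07). Per kilobase of exon, the mean levels of SLFN11 were 34.8 CPM in A4573-R against 34.2 in its parent, and 32.9 CPM in TC-71-R against 23.6 in its parent. The A4573-R libraries overlapped those of A4573 parental and of TC-71-R, and TC-71 parental lay below all other groups. The lowest A4573 parental library (203.6 CPM) and the highest TC-71-R library (203.3 CPM) were nearly equal, and these groups were not tested against each other.

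Of the other Schlafen genes, SLFN5, SLFN12, SLFN12L and SLFN13 passed the filter and SLFN14 did not. SLFN5 rose in A4573-R from 21.3 ± 1.10 to 33.6 ± 6.21 CPM (mean ± SD, n = 3; log2 change 0.62, limma adjusted p = 8.8e-06). It fell in TC-71-R from 70.7 ± 0.354 to 27.7 ± 0.611 CPM (-1.32, adjusted p = 1.1e-09). SLFN12 rose in TC-71-R, from 22.5 ± 0.394 to 32.0 ± 1.02 CPM (0.49, adjusted p = 1.2e-08). In all, 3 of the 4 tested rose and 1 fell in A4573-R, and 1 rose and 3 fell in TC-71-R.

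**Figure D3:**
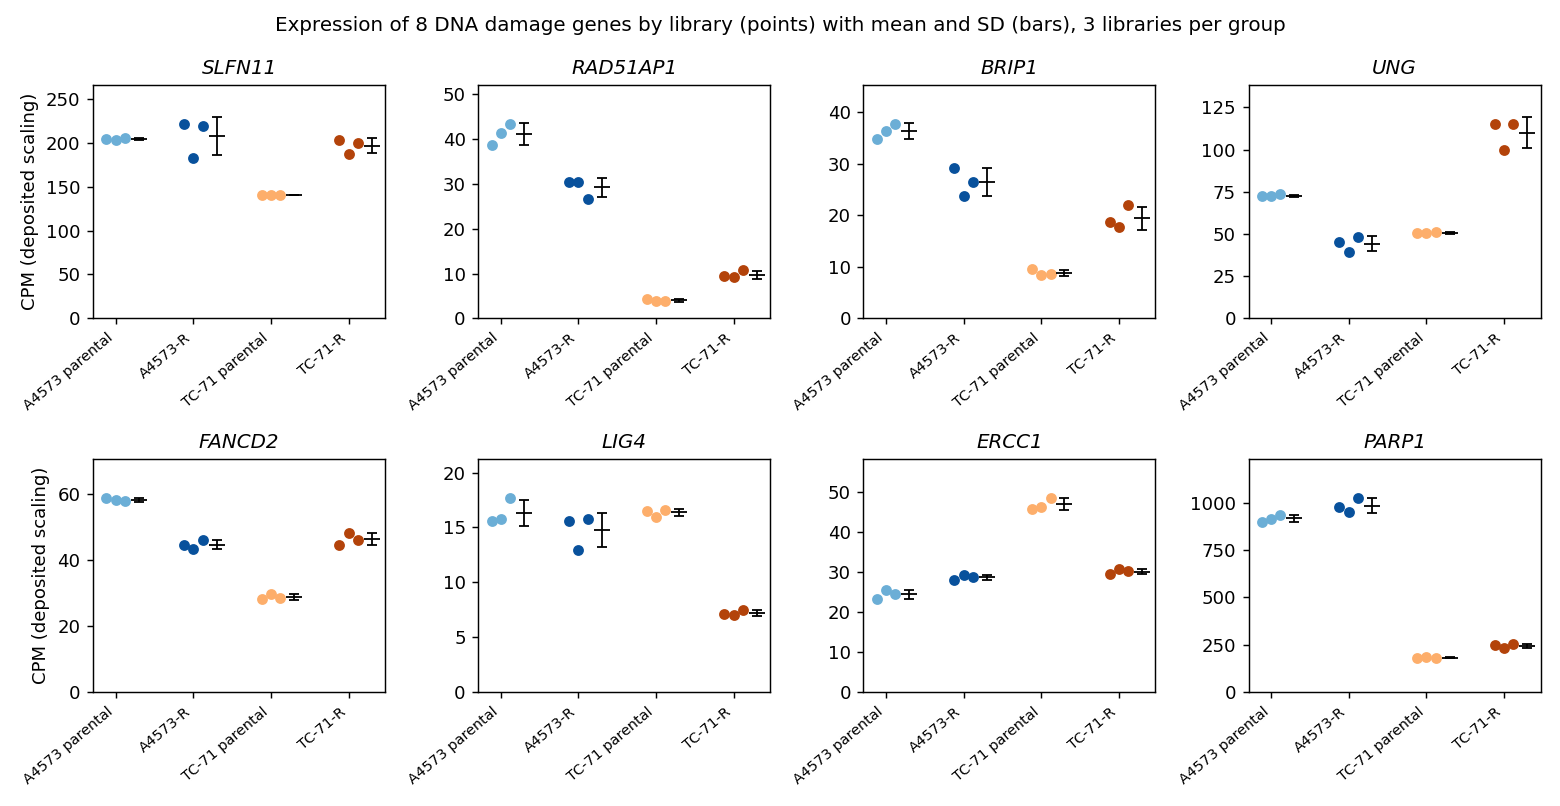
CPM of selected members in each of the 12 libraries, with the mean and SD of each group. UNG, RAD51AP1 and BRIP1 are lower in A4573-R and higher in TC-71-R than in the parental libraries, and SLFN11 is higher in TC-71-R (197 CPM) than in TC-71 parental (141 CPM).

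Of the 17 homologous recombination genes, 5 fell in A4573-R and rose in TC-71-R, and 2 did the reverse. In A4573-R, 4 of the 17 rose, 10 fell and 3 did not pass (median log2 change -0.19). In TC-71-R, 9 rose, 5 fell and 3 did not pass (median 0.11). RAD51AP1, which stimulates strand invasion, and BRIP1, the helicase that partners BRCA1, had the largest differences of the group.

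RAD51AP1 was at 38.7, 41.4 and 43.4 CPM in A4573 parental, 30.5, 30.4 and 26.7 in A4573-R, 4.33, 3.80 and 3.81 in TC-71 parental and 9.37, 9.11 and 10.7 in TC-71-R. The groups did not overlap in either line, and both TC-71 groups lay below both A4573 groups. Its log2 change was -0.48 (SE 0.07, adjusted p = 1.2e-05) in A4573-R and 1.11 (SE 0.07, adjusted p = 6.1e-10) in TC-71-R, a difference of 1.59. BRIP1 was at 34.7, 36.4 and 37.7 CPM in A4573 parental, 29.2, 23.8 and 26.5 in A4573-R, 9.47, 8.42 and 8.58 in TC-71 parental and 18.7, 17.6 and 21.9 in TC-71-R. Again no groups of a line overlapped. Its log2 change was -0.44 (SE 0.08, adjusted p = 0.0001) in A4573-R and 1.05 (SE 0.08, adjusted p = 5.2e-09) in TC-71-R, a difference of 1.50.

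XRCC2, a recombination protein, was at 20.1, 20.1 and 18.1 CPM in A4573 parental and at 11.8, 11.8 and 11.7 in A4573-R, and at 14.5, 13.7 and 13.4 CPM in TC-71 parental and 19.0, 18.8 and 20.5 in TC-71-R. It was the member of this pathway that fell most in A4573-R (log2 change -0.68, adjusted p = 7.5e-09), and it rose in TC-71-R (0.46, adjusted p = 5.3e-07). MRE11, the nuclease that starts resection with RAD50 and NBN, fell from 58.7 ± 0.414 to 42.5 ± 1.62 CPM in A4573-R and rose from 41.2 ± 1.01 to 58.4 ± 0.504 CPM in TC-71-R, with adjusted p-values of 9.1e-09 and 2.4e-09. Its partners NBN and RAD50 fell in A4573-R by 0.20 and 0.19 on the log2 scale and did not pass in TC-71-R (-0.04 and -0.03). BLM, the helicase mutated in Bloom syndrome, fell in A4573-R from 43.1 ± 0.331 to 29.2 ± 2.15 CPM (-0.55, adjusted p = 8.6e-07), while its log2 change in TC-71-R was 0.11 (adjusted p = 0.10). BLM passed there without TC-71-R 2 (0.15, adjusted p = 0.047), and under TMM and median-of-ratios scaling, edgeR and DESeq2 (0.15 to 0.16).

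RAD54L, a DNA translocase of strand exchange, rose in both lines, from 28.9 ± 1.26 to 33.8 ± 0.637 CPM in A4573-R and from 11.2 ± 0.484 to 21.6 ± 1.04 CPM in TC-71-R. The TC-71-R change of 0.89 exceeded the A4573-R change of 0.22 by 0.67 (adjusted p = 1.5e-07). BARD1, the partner of BRCA1, and RAD52, an annealing protein, fell in both lines, BARD1 by 0.26 and 0.31 and RAD52 by 0.26 and 0.23 on the log2 scale. BRCA1 itself, the ubiquitin ligase that promotes resection, rose from 23.4, 22.9 and 23.4 CPM to 35.6, 31.9 and 37.6 CPM in TC-71-R (0.57, adjusted p = 2.5e-08). In A4573-R its log2 change was -0.08 (adjusted p = 0.14), and the same change had an adjusted p of 0.040 when TC-71-R 2 was left out of the fit. EXO1, a resection nuclease, rose in TC-71-R by 0.32, and XRCC3, a partner of RAD51C, fell by 0.17 in A4573-R and rose by 0.20 in TC-71-R.

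RAD51C and BRCA2 rose in A4573-R and fell in TC-71-R. RAD51C, which acts in complexes with XRCC2 and XRCC3, was at 23.4, 24.5 and 24.7 CPM in A4573 parental, 26.1, 25.0 and 27.4 in A4573-R, 52.2, 52.3 and 52.8 in TC-71 parental and 37.9, 35.1 and 38.2 in TC-71-R. It fell in TC-71-R (log2 change -0.49, adjusted p = 3.5e-08), where no libraries overlapped, and its rise of 0.11 in A4573-R was small (adjusted p = 0.032). That rise did not pass without A4573 parental 1, A4573-R 1 or A4573-R 3 (0.07 to 0.11). BRCA2, which acts on resected DNA before strand invasion, fell in TC-71-R from 16.8 ± 1.86 to 12.8 ± 0.923 CPM (-0.37, adjusted p = 0.00069). Its rise of 0.24 in A4573-R did not pass without A4573 parental 1, A4573 parental 3 or A4573-R 1 (0.14 to 0.23).

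PALB2, which links BRCA1 to BRCA2, rose by 0.23 in A4573-R. Its TC-71-R change of 0.09 was lost without any of A4573 parental 1, 2 or 3, TC-71 parental 1 or 3, or TC-71-R 2 or 3 (0.08 to 0.09). The difference between its changes (-0.14) was lost without A4573 parental 1 or 2, A4573-R 3, TC-71 parental 2 or TC-71-R 1 (-0.14 to -0.11). RAD54B fell in TC-71-R (-0.22) and its difference (-0.24) was lost without 7 of the libraries, A4573 parental 1 and 2, A4573-R 1 and 3, TC-71 parental 1 and 3 and TC-71-R 2 (-0.23 to -0.19). For RAD50 the difference of 0.15 did not pass, but it passed without A4573-R 1 or TC-71-R 3 (0.19 to 0.21). Reads of RAD50 and RAD54B are uncertain, because 79.7% and 59.1% of their exon bases are shared with another annotated gene on the same strand.

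Other homologous recombination genes on the list, 27 in all, gave 14 higher and 5 lower in A4573-R (median log2 change 0.15), against 4 and 10 of the 17 members. In TC-71-R they gave 18 higher and 4 lower. EME1, a nuclease subunit, rose by 0.54 in A4573-R and DNA2, a resection nuclease, fell by 0.49 there. MND1, which acts in meiotic recombination, rose from 4.89 ± 0.234 to 10.7 ± 0.117 CPM in TC-71-R (0.99, adjusted p = 1.0e-10), and RECQL4, a helicase, by 0.94.

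Among end joining genes, those of the Ku proteins rose in TC-71-R and that of the ligase fell there. XRCC6 and XRCC5 encode Ku70 and Ku80, which bind broken ends. XRCC6 was at 242, 252 and 249 CPM in TC-71 parental and 374, 371 and 384 CPM in TC-71-R, with no overlap (log2 change 0.60, adjusted p = 2.7e-10), and its A4573-R change was 0.04 (adjusted p = 0.26). XRCC5 rose by 0.24 in TC-71-R and fell by 0.13 in A4573-R.

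LIG4, the ligase of end joining, was at 15.6, 15.7 and 17.7 CPM in A4573 parental, 15.5, 13.0 and 15.8 in A4573-R, 16.5, 16.0 and 16.6 in TC-71 parental and 7.15, 7.02 and 7.50 in TC-71-R. The TC-71-R libraries lay far below all 9 others, and the A4573-R libraries overlapped their parent. The TC-71-R level was 2.27-fold lower by means (log2 change -1.08, SE 0.07, adjusted p = 5.6e-10), and the A4573-R change was -0.14 (adjusted p = 0.065). The latter passed without A4573-R 1 or A4573-R 3 (-0.18 and -0.19), with the replicate block (-0.14), under the 3 other scalings, and with edgeR and DESeq2 (-0.17 to -0.15).

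XRCC4, the partner of LIG4, rose in both lines, from 5.83 ± 0.174 to 7.13 ± 0.338 CPM in A4573-R and from 4.68 ± 0.289 to 5.98 ± 0.0525 CPM in TC-71-R. TP53BP1, which favours end joining over resection, fell by 0.18 in A4573-R. Its TC-71-R change of -0.11 was lost without any of A4573 parental 1, 2 or 3, TC-71 parental 1 or 2, or TC-71-R 1 or 3 (-0.12 to -0.09). It was also lost without a filter, under TMM and median-of-ratios scaling, and with edgeR and DESeq2. PRKDC, the catalytic subunit of DNA-dependent protein kinase, had log2 changes of 0.12 (adjusted p = 0.080) and -0.12 (adjusted p = 0.068). They passed without A4573-R 3 in A4573-R (0.19), and without A4573-R 1, A4573-R 3 or TC-71-R 3 in TC-71-R (-0.15 to -0.12), where PRKDC also passed with the replicate block (-0.12). The difference between its changes (-0.24) passed, but not without a filter (-0.24, adjusted p = 0.052) or under TMM scaling (-0.18, adjusted p = 0.052). Over the 6 genes, 1 rose and 2 fell in A4573-R, and 3 rose and 2 fell in TC-71-R.

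Among 19 other genes of end joining and the break response that could be tested, 11 rose and 6 fell in A4573-R, and 11 rose and 1 fell in TC-71-R. MAD2L2, a shieldin subunit that limits resection, rose in A4573-R from 38.2 ± 2.29 to 78.1 ± 2.93 CPM (1.02, adjusted p = 1.1e-11), while FAM35A, the older symbol of the shieldin gene SHLD2, fell from 38.7 ± 1.07 to 22.0 ± 2.26 CPM (-0.79). POLQ, the polymerase of microhomology-mediated joining, rose in TC-71-R from 7.98 ± 0.446 to 17.7 ± 0.901 CPM (1.06, adjusted p = 7.2e-11).

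All 7 Fanconi anaemia members rose in TC-71-R (median 0.29), as did 38.8% of all tested genes, but FANCC only just passed (limma adjusted p = 0.0498). In A4573-R 3 rose, 3 fell and 1 did not pass, where 38.3% of all tested genes rose and 34.1% fell. FANCD2, which is ubiquitinated with FANCI when forks meet a crosslink, was at 58.8, 58.0 and 57.6 CPM in A4573 parental and 44.4, 43.2 and 46.0 in A4573-R, and at 28.0, 29.8 and 28.4 CPM in TC-71 parental and 44.6, 48.1 and 45.8 in TC-71-R. The A4573-R and TC-71-R libraries overlapped each other, although the parents stood far apart. Its log2 changes were -0.38 and 0.67, and the difference of 1.04 passed the test (adjusted p = 9.8e-11). FANCI moved the same way by -0.22 and 0.21, and FANCB, a core complex subunit, by -0.37 and 0.29.

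FANCE, the core subunit that binds FANCD2, rose most of all members in A4573-R, from 12.7, 13.4 and 14.2 CPM to 20.4, 23.5 and 19.6 CPM. It also rose in TC-71-R, from 20.8, 22.2 and 22.3 CPM to 28.6, 28.8 and 27.0 CPM. The libraries did not overlap in either line, and the change in TC-71-R (0.36) was lower than in A4573-R (0.62) by 0.26 (adjusted p = 0.012). FANCA, also of the core complex, rose by 0.26 and 0.24.

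FANCG, another core subunit, rose in TC-71-R from 19.6 ± 0.601 to 31.7 ± 0.407 CPM, and its change of 0.11 in A4573-R was lost without A4573 parental 1 or 3, or A4573-R 1 or 3 (0.09 to 0.11). The FANCC call in TC-71-R (0.10, adjusted p = 0.0498) was lost without 9 of the 12 libraries, all except A4573-R 2, A4573-R 3 and TC-71-R 2 (0.07 to 0.11). The other 6 calls were not lost when any library was left out. In A4573-R the FANCC change of 0.08 passed without A4573-R 2 (0.12). Among 13 other Fanconi genes, 2 rose and 6 fell in A4573-R, and 8 rose and 3 fell in TC-71-R. UBE2T, the conjugating enzyme for FANCD2, rose in TC-71-R from 13.4 ± 0.515 to 38.6 ± 2.37 CPM (1.45, adjusted p = 2.1e-13) and in A4573-R by 0.39. WDR48, a partner of the deubiquitinase USP1, fell by 0.41 in A4573-R and rose by 0.71 in TC-71-R.

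Of the mismatch repair members, MSH6, which recognises mismatches, was at 81.7, 82.0 and 80.6 CPM in TC-71 parental and 121, 108 and 122 CPM in TC-71-R, without overlap (log2 change 0.52, adjusted p = 1.6e-06). In A4573-R it was at 194, 171 and 213 CPM against 198, 201 and 201 CPM in the parent (-0.06, adjusted p = 0.42, and -0.13 with an adjusted p of 0.044 without A4573-R 3). PMS2, a subunit of the endonuclease MutL, fell in A4573-R by 0.25 and its TC-71-R change was 0.07 (adjusted p = 0.23), with the limit that its near-identical pseudogene copies make the reads uncertain. Of 5 other mismatch repair genes, 1 rose and 1 fell in A4573-R, and 2 rose and 3 fell in TC-71-R. PMS1 fell by 0.47 in TC-71-R.

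Base excision and single-strand break repair held the largest difference between lines of any member. UNG, the glycosylase that removes uracil from DNA, was at 72.2, 72.7 and 73.4 CPM in A4573 parental, 45.1, 39.3 and 48.5 in A4573-R, 50.3, 50.4 and 51.2 in TC-71 parental and 115, 99.8 and 115 in TC-71-R. All libraries of TC-71-R lay above those of every other group, and all of A4573-R lay below them. The log2 change was -0.71 (SE 0.06, adjusted p = 8.7e-08) in A4573-R and 1.10 (SE 0.06, adjusted p = 3.1e-10) in TC-71-R, and the difference was 1.81 (SE 0.09, adjusted p = 7.5e-11).

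The other members of this pathway rose in both lines. XRCC1, the scaffold of single-strand break repair, went from 22.2, 23.9 and 23.4 CPM to 30.0, 32.9 and 31.1 CPM in A4573-R and from 21.7, 21.4 and 22.1 CPM to 35.6, 36.2 and 32.5 CPM in TC-71-R. The parental groups were close to each other, and both derivatives lay above them (log2 changes 0.42 and 0.65, adjusted p = 9.1e-07 and 3.8e-09). PARP1, the break sensor that PARP inhibitors target, rose in TC-71-R from 182 ± 1.86 to 244 ± 11.7 CPM (0.42, adjusted p = 1.2e-07). Its A4573-R rise, from 918 ± 18.6 to 986 ± 38.0 CPM (0.10, adjusted p = 0.034), was lost without A4573 parental 1, A4573 parental 2 or A4573-R 3 (0.07 to 0.10).

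PARP2, a related sensor, rose by 0.13 in A4573-R. Its rise of 0.12 in TC-71-R was lost without TC-71 parental 1 or TC-71-R 2 (0.08 to 0.11). LIG3, the ligase bound by XRCC1, rose by 0.14 and 0.32. The former was lost without A4573-R 3 (0.12), and the difference between its changes (0.18) was lost without A4573 parental 2, A4573-R 2, TC-71 parental 1 or TC-71-R 1 (0.13 to 0.17). Among 19 other genes of the pathway 5 rose and 11 fell in A4573-R, and 12 rose and 4 fell in TC-71-R. POLB, the gap-filling polymerase, rose in A4573-R from 15.0 ± 0.551 to 28.0 ± 0.337 CPM (0.86), and PARG, which removes poly(ADP-ribose), fell from 32.4 ± 0.563 to 18.5 ± 1.48 CPM (-0.78). In TC-71-R, NEIL3, a glycosylase, rose by 1.05 and FEN1, the flap nuclease, by 0.99. MGMT, which repairs alkylated guanine directly, rose by 0.15 in A4573-R (17.0 ± 0.772 to 19.0 ± 0.511 CPM) and by 0.52 in TC-71-R (13.8 ± 0.273 to 20.3 ± 0.222 CPM).

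Nucleotide excision repair genes mostly fell in A4573-R, with 1 of 7 higher and 5 lower, and were mixed in TC-71-R, with 2 higher and 3 lower. ERCC1, which forms the nuclease that cuts 5′ of the lesion with the product of ERCC4, was at 23.2, 25.4 and 24.6 CPM in A4573 parental, 28.2, 29.3 and 28.8 in A4573-R, 45.9, 46.4 and 48.7 in TC-71 parental and 29.5, 30.7 and 30.3 in TC-71-R. The 2 derivatives were nearly level although their parents did not overlap. ERCC1 rose in A4573-R (log2 change 0.23, adjusted p = 9.6e-05) and fell in TC-71-R (-0.62, adjusted p = 8.7e-10), a difference of -0.85. Its partner ERCC4 fell in both lines, by 0.29 and 0.37, so the members of this pair moved in opposite directions in A4573-R.

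XPA, the scaffold of the incision complex, fell in A4573-R from 9.13 ± 0.227 to 6.24 ± 0.313 CPM (-0.48, adjusted p = 1.2e-06), and its TC-71-R change was 0.05 (adjusted p = 0.39). The TFIIH helicase genes ERCC2 and ERCC3 fell in A4573-R by 0.22 and 0.10 and rose in TC-71-R by 0.40 and 0.14. The ERCC3 call in A4573-R was lost without A4573 parental 2, A4573 parental 3 or A4573-R 2 (-0.10 to -0.06). XPC, the damage sensor, fell by 0.20 and 0.15. ERCC5, the nuclease for the 3′ side, did not pass in either line (-0.06 and -0.09), and its reads are uncertain because 63.2% of its exon bases are shared with a readthrough gene. Among 17 other genes, 5 rose and 7 fell in A4573-R, and 9 rose and 6 fell in TC-71-R. The TFIIH subunit genes GTF2H5 (0.88) and GTF2H1 (-0.86) changed most in A4573-R, and GTF2H3 (-0.96) and CETN2 (0.89), an XPC partner, in TC-71-R.

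All 5 checkpoint genes had a higher change in TC-71-R than in A4573-R, with 0 of 5 higher and 4 lower in A4573-R and 4 higher and 1 lower in TC-71-R. CHEK1, the kinase that restrains replication under stress, was at 18.0, 18.2 and 18.3 CPM in TC-71 parental and 30.8, 29.2 and 30.3 CPM in TC-71-R, with no overlap. It rose there by 0.70 (adjusted p = 1.4e-10), and its A4573-R change of -0.09 was lost without A4573 parental 2 or 3, A4573-R 1 or 2, or TC-71 parental 2 or 3 (-0.10 to -0.07). CHEK2, the kinase activated by ATM, fell in A4573-R from 45.9 ± 1.37 to 40.1 ± 2.05 CPM (-0.19, adjusted p = 0.0009) and rose in TC-71-R from 19.9 ± 0.630 to 30.4 ± 1.02 CPM (0.59, adjusted p = 4.8e-09).

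ATR, the kinase that senses single-stranded DNA, fell in both lines, from 65.0 ± 0.480 to 49.1 ± 2.71 CPM in A4573-R and from 40.7 ± 0.358 to 37.0 ± 1.50 CPM in TC-71-R. Its activator TOPBP1 fell by 0.27 in A4573-R and rose by 0.20 in TC-71-R. ATM, the kinase that senses double-strand breaks, rose in TC-71-R from 54.1 ± 0.828 to 68.8 ± 2.41 CPM (0.34, adjusted p = 2.6e-05) and was at 45.2 ± 0.808 and 44.9 ± 4.27 CPM in A4573 parental and A4573-R. Of 13 other checkpoint genes tested, 4 rose and 4 fell in A4573-R, and 5 rose and 4 fell in TC-71-R. WEE1, which inhibits CDK1, fell in A4573-R from 48.3 ± 1.52 to 27.0 ± 1.47 CPM (-0.82) and rose in TC-71-R from 27.7 ± 0.808 to 52.7 ± 1.32 CPM (0.91).

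Cell cycle markers also differed between the groups, and their part in the results was not tested. In A4573-R the S phase list fell with most called members while the G2/M list rose, and in TC-71-R both lists rose. Of 19 S phase genes, 4 rose and 11 fell in A4573-R (median log2 change -0.19) and 17 rose and 2 did not pass in TC-71-R (median 0.81). Of 15 G2/M genes, 8 rose and 3 fell in A4573-R (median 0.19) and all 15 rose in TC-71-R (median 1.48). The summed level of the S phase list was 2396 to 2476 CPM in A4573 parental, 2103 to 2380 in A4573-R, 957 to 964 in TC-71 parental and 1527 to 1747 in TC-71-R. That of the G2/M list was 2700 to 2735, 2900 to 3097, 425 to 440 and 1224 to 1260 CPM in the same order. The S phase sum was lower in A4573-R and higher in TC-71-R than in the parents, without overlap of libraries.

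**Figure D4:**
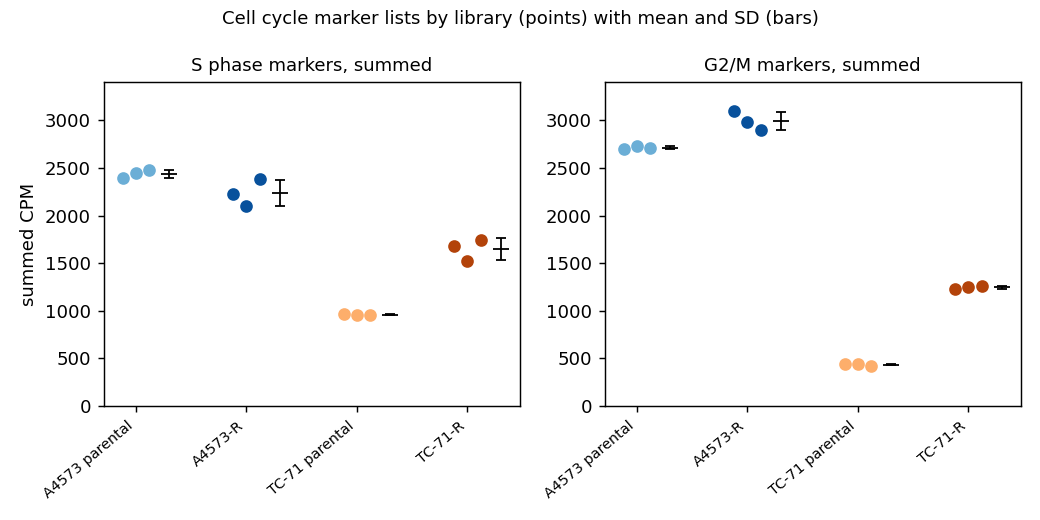
Summed CPM of 19 S phase genes (left) and 15 G2/M genes (right) in each library, with the mean and SD of each group. TC-71 parental is lowest on both panels, and TC-71-R lies between it and both A4573 groups.

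The second question was how the parental lines differed. In TC-71 parental, 32 members were lower than in A4573 parental, 13 were higher and 6 did not pass, where 89.9% of all tested genes were called, 44.1% lower and 45.9% higher. The median log2 difference of the members was -0.46, and that of all tested genes 0.02. The libraries of the parental lines did not overlap for 46 members (as for 92.5% of all tested genes). At 2-fold or more, 14 members were lower (as were 14.6% of all tested genes) and 1, RAD51C, was higher (as were 16%).

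The 14 lower genes came from several pathways, namely RAD51AP1, BRIP1, BLM, EXO1, BRCA1 and RAD54L of homologous recombination, XRCC6 of end joining, FANCB and FANCI, MSH6, PARP1 and LIG3, and CHEK1 and CHEK2. RAD51AP1 was 10.3-fold lower by means (log2 difference -3.08, SE 0.07, adjusted p = 6.3e-16). PARP1 was 5.05-fold lower, at 182, 183 and 180 CPM against 901, 916 and 938 CPM (-2.33, SE 0.04, adjusted p = 3.5e-17). BRIP1 and CHEK1 had log2 differences of -1.93 each. The libraries of the 2 lines did not overlap for any of these 4 genes.

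The nucleotide excision repair members stood on the other side, with 5 of the 7 higher in TC-71 parental (median 0.23) and ERCC3 and ERCC4 lower. Of all tested genes 45.9% were higher and 44.1% lower. The 17 other genes of this pathway did not share that balance, with 4 higher and 7 lower (median -0.02). ERCC1 was 0.92 higher on the log2 scale (adjusted p = 2.6e-12). RAD51C was 1.08 higher (adjusted p = 7.2e-13), and FANCE, NBN and RAD52 were higher by 0.66, 0.66 and 0.55. LIG4, PARP2 and XRCC3 did not pass, with log2 differences of 0.00, 0.00 and -0.01. The FANCC call (0.10) was lost without A4573 parental 1 or 2, A4573-R 1, any TC-71 parental library or TC-71-R 1 (0.09 to 0.11), the PMS2 call (-0.15) without A4573 parental 2 (-0.11), and XRCC1 (-0.09) passed without A4573 parental 1 (-0.12). In S phase genes 18 of 19 and in G2/M genes 15 of 15 were also lower in TC-71 parental (medians -1.51 and -2.20).

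**Figure D5:**
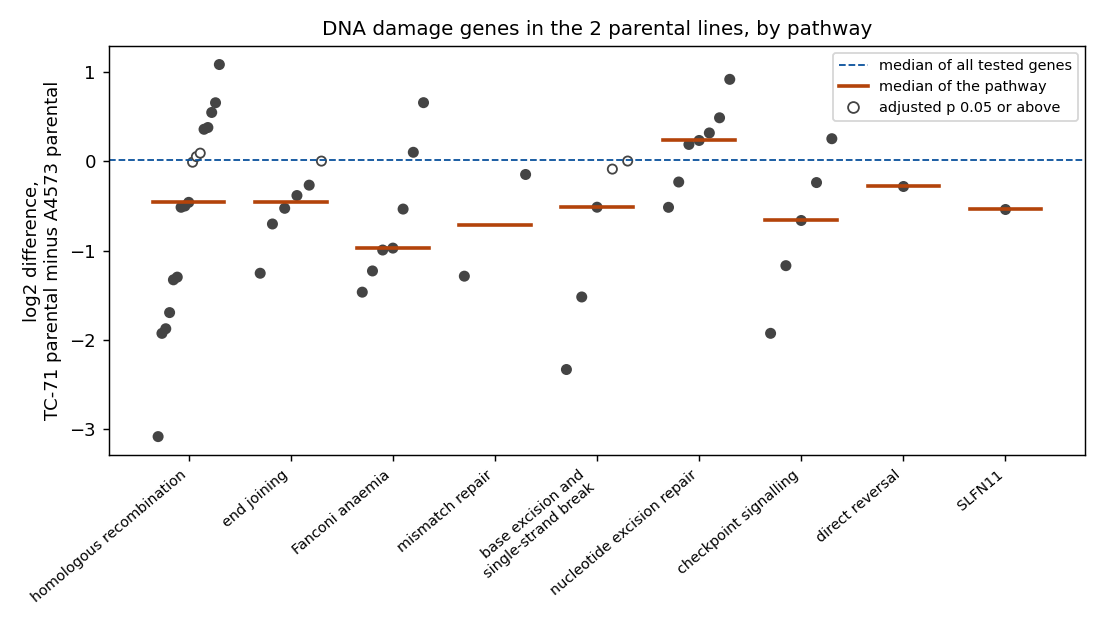
Log2 difference between TC-71 parental and A4573 parental for each of the 51 genes, by pathway, below 0 where TC-71 is lower. RAD51AP1 lies lowest at -3.08 and RAD51C highest at 1.08, and 5 of the 7 nucleotide excision repair genes lie above 0.

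Set in order over the 4 groups, TC-71 parental had the lowest mean of 24 of the 51 members (47.1%), against 25.5% of all tested genes. The TC-71-R mean lay between the parental means for 30 members (58.8%), against 40.4% of all tested genes. Per kilobase of exon XRCC6 had the highest mean level of the members in all 4 groups (180 and 186 CPM per kilobase in A4573 parental and A4573-R, 75.4 and 114 in the TC-71 pair), and ERCC5 the lowest (0.269, 0.253, 0.323 and 0.297 in the same order). The rank of ERCC5 is uncertain, because 63.2% of its exon bases are shared with genes of the same strand. Its level was divided by the full exon length, shared bases included.

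For 11 members more than 10% of the exon bases lie opposite a gene on the other strand. The share is 76.7% for XRCC3. It runs from 16.2% to 30.5% for LIG3, XPC, TP53BP1, ERCC1, ERCC4, RAD54L, FANCA, XRCC1, ATR and MSH6. Whether counting kept strands apart was not stated in the sources used, so how reads in these shared bases were assigned is uncertain.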

How the data were processed

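Total RNA of 12 cell line libraries was sequenced as paired ends of 100 bases with a TruSeq RNA kit, per the labels' protocols. The authors' tools were Trimmomatic, STAR 2.4, HTSeq and edgeR, with GRCh38 as genome, per the submitters' processing notes. Strandedness and the annotation release are not given in the sources used here. The deposited signal is 1 normalized value per gene and library. Every value was a whole multiple (within 0.001) of its column's smallest step, and the columns sum to 0.940 to 1.12 M (M, 1000000), so values were read as CPM on scaled library sizes, and the whole numbers as reads. Of 58293 entries, 5 name no gene. They hold 30.6% to 42.0% of the reads and were left out, although the deposited scaling counts them.

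The main test was limma 3.58.1 (R 4.3.3) on log2(CPM + 1) with a trend, a mean for each of the 4 groups and all 12 libraries. The pseudocount of 1 understates changes of low genes. The 14335 genes that reached 1 CPM in 3 or more libraries entered. P-values were adjusted over these genes by Benjamini-Hochberg, with a threshold of 0.05. The 2 changes against the parent, their difference and the difference between parents were taken. Exact tests of 3 against 3 libraries cannot go below 0.1 and were not used. The test was tried on simulated data first.

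The members and the other gene lists were chosen with earlier results of these data known, and no list was tested as a set. Any member could be named. Of each other list, at most 2 genes past the threshold with the largest change in a comparison were named, and a few genes are not reported here. SHLD3 was not matched. Exon overlaps come from GENCODE 29. Alternatives were edgeR 4.0.16 and DESeq2 1.42.0 on the recovered reads, and other scalings, filters and pseudocounts. Others were a replicate block, a fit of the compared groups alone and leaving out each library.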

Additional observations from a re-analysis of the deposited data

Results flagged for a closer look

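The change from parent to resistant line differed between TC-71 and A4573 for 40 of the 51 members, by limma's test of the interaction over 14335 genes. The values below are the TC-71-R change minus the A4573-R change on the log2 scale, on 3 libraries per group. Differences of this kind were called for 78.1% of all tested genes. In homologous recombination the difference was 1.59 for RAD51AP1, 1.50 for BRIP1, 1.14 for XRCC2, 0.95 for MRE11, 0.67 for RAD54L, 0.66 for BLM, 0.65 for BRCA1, 0.40 for EXO1, 0.37 for XRCC3 and 0.16 for NBN. On the lower side in homologous recombination it was -0.61 for BRCA2, -0.60 for RAD51C, -0.24 for RAD54B and -0.14 for PALB2. In end joining the difference was 0.56 for XRCC6 and 0.37 for XRCC5. On the lower side in end joining it was -0.94 for LIG4 and -0.24 for PRKDC. In Fanconi anaemia the difference was 1.04 for FANCD2, 0.67 for FANCB, 0.55 for FANCG and 0.43 for FANCI. On the lower side in Fanconi anaemia it was -0.26 for FANCE. In mismatch repair the difference was 0.57 for MSH6 and 0.32 for PMS2. In base excision and single-strand break repair the difference was 1.81 for UNG, 0.32 for PARP1, 0.23 for XRCC1 and 0.18 for LIG3. In nucleotide excision repair the difference was 0.62 for ERCC2, 0.54 for XPA and 0.25 for ERCC3. On the lower side in nucleotide excision repair it was -0.85 for ERCC1. In checkpoint signalling the difference was 0.79 for CHEK1, 0.78 for CHEK2, 0.48 for TOPBP1, 0.36 for ATM and 0.26 for ATR. It was 0.36 for MGMT. It was 0.46 for SLFN11. The calls for PALB2, RAD54B and LIG3 were lost when single libraries were left out, as given in the report with each gene, and that for PRKDC was lost without a filter and under TMM scaling. The NBN and LIG3 calls were lost under scaling to the reads on named genes, and those for PALB2 and RAD54B under TMM scaling, edgeR and DESeq2.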

How the results depend on the processing

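Over the alternatives run, the number of members called higher ran from 10 to 16 in A4573-R, 29 to 34 in TC-71-R, 30 to 33 for the difference between the lines' changes and 12 to 13 between parents. The number called lower ran from 24 to 29, 10 to 14, 5 to 8 and 31 to 33 in the same order. With 1 library left out, the members called higher ranged from 10 to 16, 30 to 33, 31 to 33 and 12 to 13, and those called lower from 24 to 28, 10 to 12, 6 to 8 and 31 to 33. Under TMM scaling, 5 members had a lower change in TC-71-R than in A4573-R in place of 8, and the cause was not tested. Without a filter, the A4573-R calls of BRCA2, CHEK1, PARP1 and RAD51C were lost, and the TC-71-R calls of FANCC and TP53BP1. The FANCC call between parents and the RAD54B and PRKDC differences were also lost there. Of the comparisons of single members with their alternatives, 4272 kept their side of the threshold, 116 lost the call and 41 gained it. Direction was compared only where the main fit, the alternative or both gave a call, and 0 of these reversed. Scaling to the reads on named genes ended the TC-71-R calls of ERCC3 (0.07, adjusted p = 0.055 with limma), FANCC (0.03), PALB2 (0.02) and PARP2 (0.05), the LIG3 and NBN differences (0.11 and 0.09) and the PMS2 call between parents (-0.08). It added TC-71-R calls of ERCC5 (-0.15), NBN (-0.11) and PRKDC (-0.19) and the A4573-R call of LIG4 (-0.15). TMM scaling and edgeR each ended the A4573-R calls of PARP1, FANCG and RAD51C and added those of BRCA1, EXO1 and LIG4. Both, like median-of-ratios scaling and DESeq2, ended the TP53BP1 call in TC-71-R and the FANCC call between parents. They added BLM in TC-71-R and XRCC1 between parents. A fit of the compared groups alone ended the A4573-R calls of PARP1, FANCG, RAD51C, CHEK1 and ERCC3. Correlations of same-numbered deviations ran from -0.0974 to 0.165, which gave no sign of a strong effect of the replicate number. With 3 libraries per group they cannot show whether same-numbered libraries were handled together. A fit with the replicate block called 14 higher and 27 lower in A4573-R and 33 and 12 in TC-71-R. For the difference it called 32 and 8, and between parents 13 and 32. The block added the calls of LIG4 in A4573-R and PRKDC in TC-71-R and changed no other member's call. Differences below about 0.1 on the log2 scale were close to the spread between libraries. The median SD over members was 0.031 in each parental group, 0.065 in A4573-R and 0.054 in TC-71-R. The main fit shared 1 spread per gene over all groups, so its standard errors do not show that the resistant groups varied more.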
